A study of Rattus norvegicus with 16 samples.

Results

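The genes described here encode vasoactive intestinal peptide (Vip) and its receptors Vipr1 and Vipr2, and adrenomedullin (Adm) with the parts of its receptor, Calcrl, Ramp1, Ramp2 and Ramp3. They were chosen by gene symbol, and each of the 8 had 1 probe set annotated to it alone, so that 8 of the 14506 genes that had a probe set of their own are described. Signals are log2 values, so that a difference of 1 is a doubling, and levels are compared only within a gene. The study asks whether estrogen receptors carry the effect of estradiol on the changes that hypoxia brings about in the lung.

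Each array held RNA from 1 right lung, flushed with saline, of a male Sprague-Dawley rat weighing 250 to 300 g, with 4 rats per group. The first group received hypoxia, 17β-estradiol and fulvestrant, an antagonist of the estrogen receptors injected under the skin at 3 mg/kg/day. The second received hypoxia and 17β-estradiol, released from an implanted pump at 75 µg/kg/day over 3 weeks, as in the first group. Hypoxia alone was given to the next group, and the last was kept in normoxia. Hypoxia meant 2 weeks at a chamber pressure of 362 mmHg, which corresponds to 10% oxygen at sea level, and it began 1 week after the pumps were placed. The labels give no age and do not say whether the rats without drug carried empty pumps or received injections. No group received estradiol or fulvestrant in normoxia, so the effects of the drugs were seen only under hypoxia. None received fulvestrant without estradiol, so blocked estradiol and an effect of fulvestrant itself cannot be told apart.

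Vasoactive intestinal peptide is released mainly by nerves of the airways and vessels, and adrenomedullin mainly by endothelium and other cells of the vessel wall. Both relax vascular smooth muscle through receptors coupled to the stimulatory G protein, which raise cyclic AMP. Calcrl is a receptor that needs a partner protein: with Ramp1 it binds calcitonin gene-related peptide, and with Ramp2 or Ramp3 it binds adrenomedullin. Adm is a textbook target of hypoxia-inducible factors, and mice that lack Vip have been studied as a model of pulmonary hypertension.

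Sequences before the gene starts were available for 7 of the 8 genes (RefSeq, build GRCr8), all but Ramp2. The 250 bases before the start are shown for the receptor genes that differed between hypoxia and normoxia, and for Vip, whose promoter is known for its response to cyclic AMP. Capitals mark any match, on either strand, to 4 motifs: ACGTG and GCGTG, forms of the core that hypoxia-inducible factors bind, the palindrome that estrogen receptors bind (GGTCA and TGACC with 3 bases between), and TGACG, part of the cyclic AMP response element. No match overlapped another.

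Vipr1 (chr8:130187511-130187760, plus strand): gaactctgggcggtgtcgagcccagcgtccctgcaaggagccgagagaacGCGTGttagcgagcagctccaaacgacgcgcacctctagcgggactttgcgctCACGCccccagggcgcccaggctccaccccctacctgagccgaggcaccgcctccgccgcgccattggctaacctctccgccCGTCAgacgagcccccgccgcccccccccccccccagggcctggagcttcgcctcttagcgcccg

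Vipr2 (chr6:143144273-143144522, plus strand): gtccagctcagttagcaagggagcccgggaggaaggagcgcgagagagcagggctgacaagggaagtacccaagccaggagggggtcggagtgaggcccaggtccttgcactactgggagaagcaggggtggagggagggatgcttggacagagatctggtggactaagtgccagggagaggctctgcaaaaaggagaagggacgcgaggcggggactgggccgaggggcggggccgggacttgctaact

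Ramp3 (chr14:85741064-85741313, plus strand): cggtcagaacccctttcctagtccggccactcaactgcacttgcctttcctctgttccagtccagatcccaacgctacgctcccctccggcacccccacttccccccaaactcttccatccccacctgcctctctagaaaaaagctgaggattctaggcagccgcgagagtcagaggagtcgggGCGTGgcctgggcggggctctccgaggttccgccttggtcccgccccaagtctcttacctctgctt

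Vip (chr1:44470230-44470479, plus strand): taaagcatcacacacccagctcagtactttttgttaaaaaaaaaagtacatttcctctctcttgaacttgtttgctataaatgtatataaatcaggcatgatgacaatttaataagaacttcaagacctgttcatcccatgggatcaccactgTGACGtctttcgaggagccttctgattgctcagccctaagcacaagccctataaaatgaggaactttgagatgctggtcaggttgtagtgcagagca

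GCGTG or its reverse complement was found in Vipr1, where it occurred on both strands, in Ramp3 and in Ramp1, that is in 3 of 7 genes, beside 25.9% of the 33469 rat promoters of that length. TGACG was found in Vip, with its first base at -97 from the gene start, and in Vipr1, beside 18.2% of promoters. ACGTG (16.6% of promoters) and the estrogen response palindrome (0.0239%) matched 0 of the 7. The window of Vipr2 shown above held no match, and neither did those of Adm and Calcrl. These are matches of letters and were not tested as binding sites.

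The labels disagree on 1 lung: normoxia replicate 4 is normoxia by its title and hypoxia by its treatment field. It was taken as normoxia. Under the other label, with this array counted as hypoxia, hypoxia against normoxia gave 40 calls over all genes in place of 817, and estradiol against hypoxia gave 0 in place of 112. Each call among the 8 genes is given under both labels, and calls of related and marker genes that ended are named as such. On the first principal component it lay at -19.7, within the other normoxia arrays (-20.8 to -12.0) and apart from the 12 hypoxic ones (-2.05 to 16.3). Hypoxia with estradiol replicates 2 and 3 lay apart from the other 14 arrays on the second component, at -25.4 and -22.3 against -5.18 to 7.85. Markers of alveolar type 1 and type 2 cells, the defining cells of lung, had mean log2 signals of 12.8 to 13.2 on all 16 arrays. The type 1 list lay at 12.98 to 13.05 in normoxia and lower, at 12.84 to 12.97, on the 12 hypoxic arrays. Of its 6 markers 1 fell in hypoxia against normoxia (2.43% of all genes), and 0 did so under the other label of normoxia replicate 4. In whole lung, fewer cells of a type and less RNA per cell cannot be told apart. The labels name no batch, and one that ran with the groups cannot be told apart from them.

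**Figure D1:**
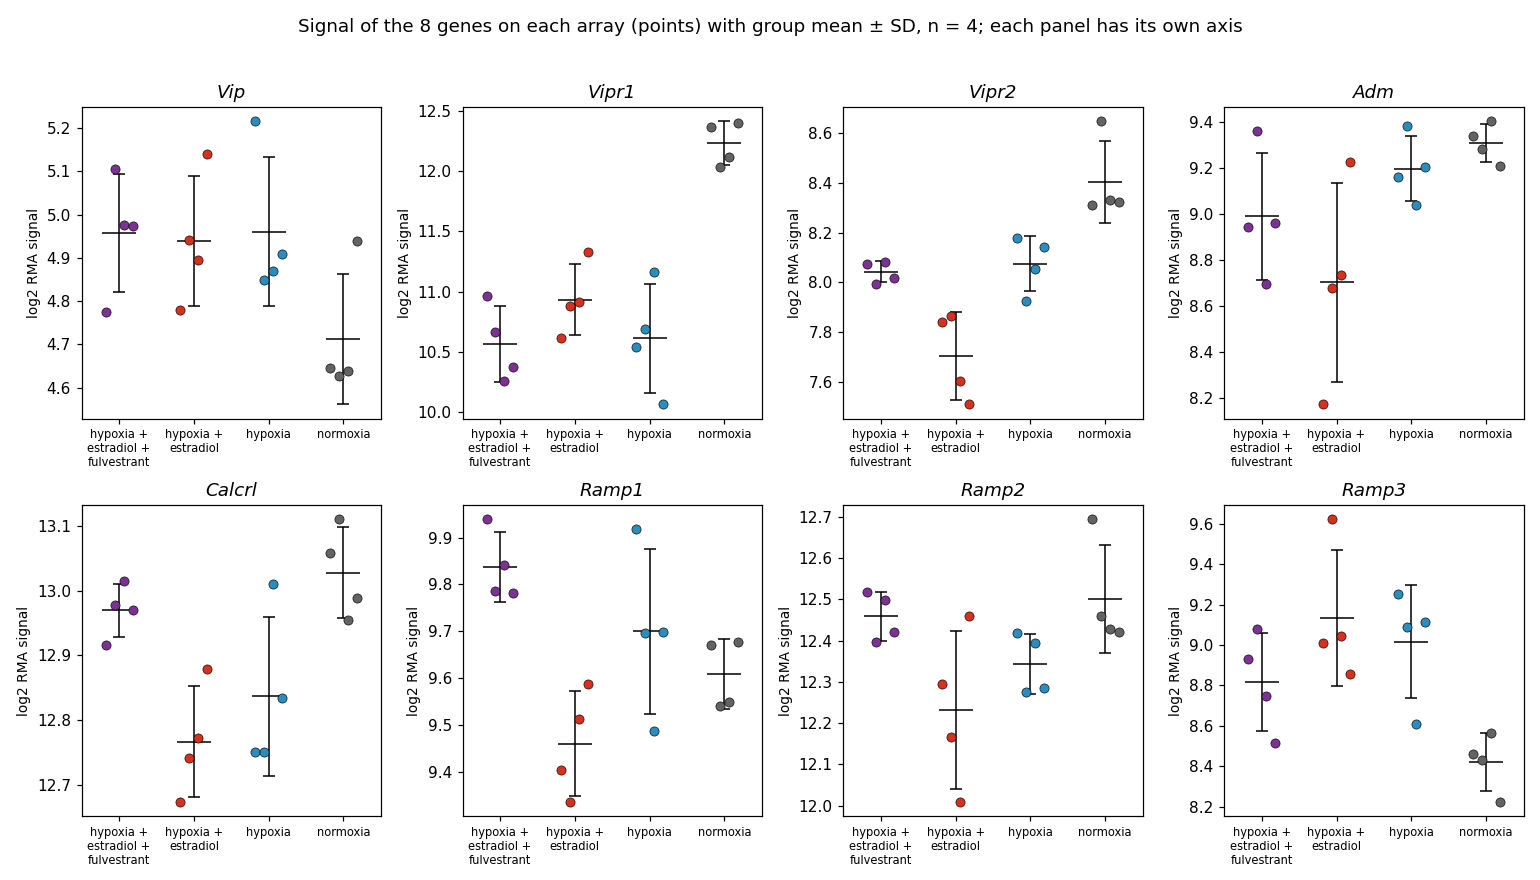
log2 RMA signal (vertical axes, different for each panel) of the 8 genes on each of the 16 arrays (points), by group, with the group mean and SD (horizontal and vertical bars, n = 4). Vipr1 lies at 12.03 to 12.40 in normoxia and at 10.07 to 11.33 on the 12 hypoxic arrays, and Vipr2 is lowest with estradiol, at 7.51 to 7.87.

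The effect of low oxygen is read from hypoxia against normoxia. Of the 8 genes 2 fell, Vipr1 and Vipr2, 1 rose, Ramp3, and 5 did not pass (adjusted p under 0.05, limma, Benjamini-Hochberg over all genes). Over all 14506 genes 5.63% passed, 3.21% higher and 2.43% lower. The median log2 difference was -0.13 over the 8 genes and 0.026 over all genes. The arrays of the groups did not overlap for 4 of the 8, the 3 named and Ramp2 (whose nearest arrays both round to 12.42), against 12.1% of all genes.

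Vipr1, the receptor VPAC1, found in lung on epithelium, vessels and T cells, had the largest difference of the 8 (probe set 10940614). Its log2 signal was 10.54, 10.69, 11.16 and 10.07 in the hypoxia arrays, against 12.37, 12.03, 12.12 and 12.40 in normoxia. The highest hypoxia array was thus well under the lowest normoxia array. The means were 10.61 ± 0.45 in hypoxia and 12.23 ± 0.18 in normoxia (SD, n = 4 each), a log2 difference of -1.62 (SE 0.20, 95% interval -2.05 to -1.18, adjusted p = 0.000264 in limma), or 3.07-fold lower. It passed without any 1 of the 8 arrays, at log2 differences of -1.80 to -1.44. Under the other label of normoxia replicate 4 it was -1.20 and did not pass (adjusted p = 0.136 in limma).

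Vipr1 was low in every group that had hypoxia. It was 10.97, 10.66, 10.26 and 10.38 with estradiol and fulvestrant, and 10.62, 10.88, 10.91 and 11.33 with estradiol alone. From the lowest mean to the highest the groups ran hypoxia with estradiol and fulvestrant (10.57 ± 0.31), hypoxia, hypoxia with estradiol (10.93 ± 0.29; SD, n = 4 each), and normoxia. The 3 hypoxic groups overlapped and none differed from another past the threshold. Estradiol against hypoxia gave 0.32 (95% interval -0.11 to 0.75, adjusted p = 0.466 in limma), and fulvestrant added to estradiol gave -0.37 (-0.80 to 0.068, adjusted p = 0.431 in limma), so that a signal up to 0.75 higher with estradiol, on the log2 scale, lies within the interval. The estradiol difference was 0.14 without hypoxia replicate 4, 0.50 without hypoxia replicate 3 and 0.19 without estradiol replicate 4, and the fulvestrant difference was -0.23 without that last array, and none of these passed in limma. Against normoxia, Vipr1 was 3.17-fold lower with estradiol and fulvestrant (log2 -1.66, SE 0.20, adjusted p = 0.000259 in limma) and 2.46-fold lower with estradiol (-1.30, SE 0.20, adjusted p = 0.0018 in limma). Under the other label of normoxia replicate 4 these were -1.61 (adjusted p = 0.0702) and -1.24 (adjusted p = 0.0895), and neither passed in limma.

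Markers of other cells moved in the same lungs. Of 10 markers of T and natural killer cells 8 fell in hypoxia and 0 rose. Over all genes 2.43% fell and 3.21% rose in hypoxia against normoxia, shares that also stand beside the capillary and endothelial counts below. The mean log2 signal of the list was 8.24 to 8.58 in hypoxia against 8.86 to 9.35 in normoxia. The list was at 8.54 to 8.96 with estradiol and fulvestrant and 8.49 to 8.89 with estradiol, and both groups overlapped normoxia. Against normoxia 2 of the 10 fell in each of them (0.993% and 2.34% of all genes), and 0 did so under the other label of normoxia replicate 4. Of 9 markers of lung capillary endothelium 2 fell in hypoxia against normoxia, Hpgd and Plvap, and 3 rose, Gpihbp1, Aplnr and Emcn. The 7 general endothelial markers had mean signals of 11.99 to 12.09 in both hypoxia and normoxia, and 1 of them fell in hypoxia. With estradiol against normoxia 2 of the 7 fell (2.34% of all genes), and 1 did so under the other label of normoxia replicate 4. Under the other label of normoxia replicate 4, 0 of these T, natural killer, capillary and general endothelial markers passed in hypoxia against normoxia in limma. The part of any of these in the Vipr1 difference was not tested.

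Vipr2, the receptor VPAC2 of smooth muscle, was lowest in the lungs that received estradiol without fulvestrant (probe set 10887679). Its signal was 8.08, 7.99, 8.08 and 8.02 in lungs with estradiol and fulvestrant. It was 7.84, 7.87, 7.60 and 7.51 with estradiol alone, 8.18, 7.93, 8.06 and 8.14 in hypoxia, and 8.31, 8.65, 8.33 and 8.32 in normoxia. The estradiol arrays lay under all 12 others, and the normoxia arrays above them all.

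The means of Vipr2 were 8.04 ± 0.043 with estradiol and fulvestrant, 7.70 ± 0.18 with estradiol, 8.08 ± 0.11 in hypoxia and 8.40 ± 0.16 in normoxia (SD, n = 4 each). Against normoxia, Vipr2 was lower with estradiol by a log2 difference of -0.70 (SE 0.092, adjusted p = 0.000348 in limma), or 1.62-fold. That call held without any 1 of the 8 arrays (-0.75 to -0.62), and at -0.72 under the other label of normoxia replicate 4 (adjusted p = 0.00524 in limma). Hypoxia alone gave -0.33 (SE 0.092, adjusted p = 0.0482 in limma), and estradiol with fulvestrant gave -0.36 (SE 0.092, adjusted p = 0.0452 in limma). Both of those calls lay close to the threshold and ended without any 1 of their 8 arrays, with adjusted p of 0.0572 to 0.138 and 0.0613 to 0.121 in limma. The hypoxia call also ended with median centring (adjusted p = 0.0579), quantile normalization again (0.0514), all probe sets (0.0694), the 2 groups only (0.0853), an intensity trend (0.0519) and the other label of normoxia replicate 4 (0.172). The call with fulvestrant ended over all probe sets (adjusted p = 0.0747) and under that other label (0.116, all in limma).

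Estradiol against hypoxia asks what the hormone changed while oxygen was low, and for it 0 of the 8 genes passed in limma (3 at an unadjusted p under 0.05, as were 16.1% of all genes), beside 0.772% of all genes that passed. Vipr2 came nearest, at -0.37 (SE 0.092, 95% interval -0.57 to -0.18, adjusted p = 0.0722 in limma), and its arrays did not overlap, as was so for 6.65% of all genes. Without estradiol replicate 1 it passed, at -0.42 (adjusted p = 0.0468 in limma). Adding fulvestrant to estradiol asks whether the receptors were needed, as far as fulvestrant had no effect of its own, which no group shows. There Vipr2 was higher in all 4 arrays, by 0.34 (SE 0.092, 95% interval 0.14 to 0.53), and did not pass (adjusted p = 0.105 in limma). Estradiol with fulvestrant and hypoxia alone differed by -0.033 (95% interval -0.23 to 0.16, adjusted p = 0.975 in limma).

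Vip itself was dim, among the lowest 25% of genes by mean signal, where RMA compresses differences (probe set 10702706). It ranged over 4.78 to 5.11 with estradiol and fulvestrant, 4.78 to 5.14 with estradiol, 4.85 to 5.22 in hypoxia and 4.63 to 4.94 in normoxia. The largest of its differences was hypoxia against normoxia, 0.25 (SE 0.10, adjusted p = 0.18 in limma), and the groups overlapped. Vip did not pass in any of the 6 pairs of groups. The 5 nerve markers, for the cells that make this peptide, had mean signals of 6.56 to 6.78 in hypoxia against 6.48 to 6.53 in normoxia. These were 6.61 to 6.77 with estradiol and fulvestrant and 6.32 to 6.73 with estradiol. Of the 5 markers 1 rose in hypoxia against normoxia (3.21% of all genes), and 0 did so under the other label of normoxia replicate 4.

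**Figure D2:**
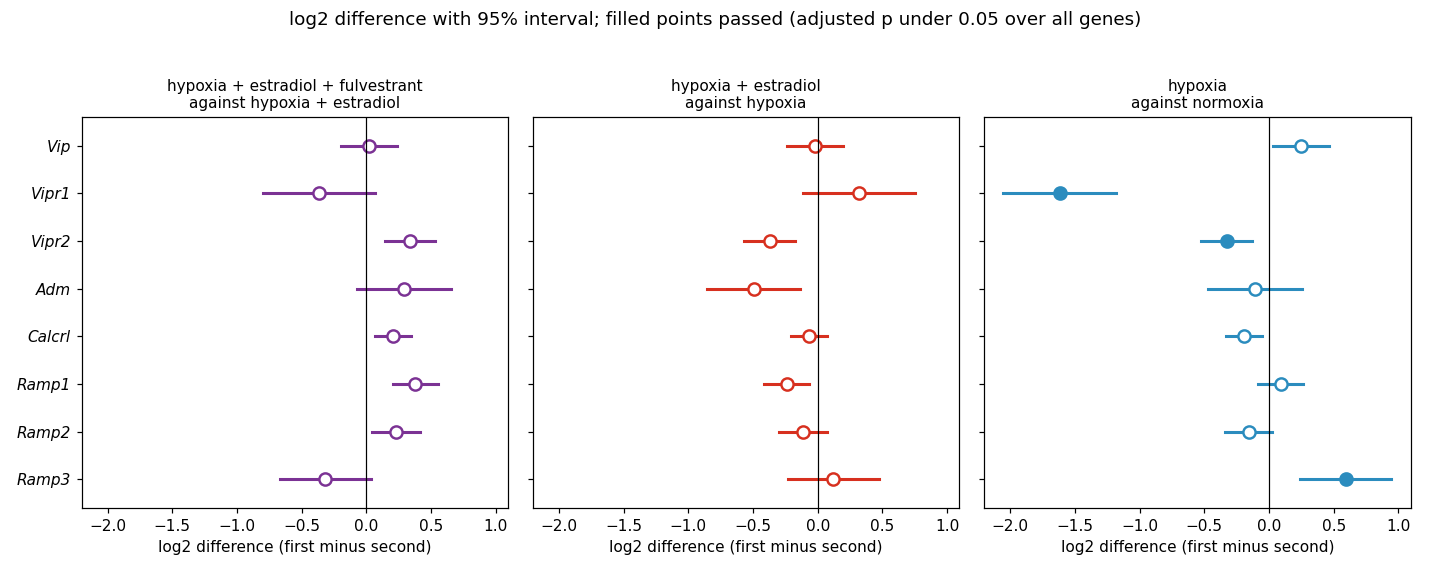
log2 difference (horizontal axes, first group minus second) of each of the 8 genes in the 3 main comparisons, with its 95% interval, where filled points passed at an adjusted p under 0.05. Vipr1 at -1.62, Vipr2 at -0.33 and Ramp3 at 0.59 passed in hypoxia against normoxia, and no gene passed in the other comparisons shown.

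Adm did not differ between hypoxia and normoxia past the threshold (probe set 10709875). Its signal was 8.94, 9.36, 8.70 and 8.96 with estradiol and fulvestrant, and 8.17, 8.68, 8.73 and 9.23 with estradiol. It was 9.16, 9.38, 9.04 and 9.20 in hypoxia and 9.34, 9.28, 9.40 and 9.21 in normoxia. The estradiol arrays spread the most, and 3 of the 4 lay under every hypoxia and normoxia array.

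Hypoxia against normoxia gave -0.11 for Adm (SE 0.17, 95% interval -0.47 to 0.25, adjusted p = 0.768 in limma). Estradiol against hypoxia gave -0.50 (SE 0.17, 95% interval -0.86 to -0.13, adjusted p = 0.183 in limma). That difference passed without estradiol replicate 4, the highest of its group (-0.67, adjusted p = 0.032 in limma), and shrank to -0.32 without estradiol replicate 1, the lowest (adjusted p = 0.288). Estradiol against normoxia gave -0.61 (SE 0.17, adjusted p = 0.0509 in limma), which passed without the same array (-0.78, adjusted p = 0.00612), with dim genes left out (adjusted p = 0.0427) and with an intensity trend in limma (adjusted p = 0.047). Fulvestrant added to estradiol gave 0.29 (95% interval -0.075 to 0.65, adjusted p = 0.466 in limma), so that neither no difference nor a return to the hypoxia level lies outside the interval. It was 0.11 without estradiol replicate 1 (adjusted p = 0.781) and 0.46 without replicate 4 (adjusted p = 0.111, both in limma).

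Calcrl, the shared receptor of adrenomedullin and calcitonin gene-related peptide, varied little (probe set 10846762). It was 12.92, 12.98, 13.02 and 12.97 with estradiol and fulvestrant, 12.67, 12.74, 12.77 and 12.88 with estradiol, 12.75, 12.75, 13.01 and 12.83 in hypoxia, and 13.06, 13.11, 12.96 and 12.99 in normoxia. The estradiol arrays lay under those of normoxia and under those with fulvestrant added. Estradiol against normoxia gave -0.26 (SE 0.066, adjusted p = 0.0316 in limma), the only one of the 6 pairs of groups in which Calcrl passed.

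The Calcrl call ended without normoxia replicate 1 (adjusted p = 0.0868) or 2 (0.0977), without estradiol replicate 1 (0.0773), 2 (0.0706) or 3 (0.0659), over all probe sets (0.0532), with array weights (0.0552), with the 2 groups only (0.1001) and under the other label of normoxia replicate 4 (0.065, all in limma). Hypoxia against normoxia gave -0.19 (SE 0.066, adjusted p = 0.105 in limma) and passed without hypoxia replicate 3, the highest of its group (-0.25, adjusted p = 0.0253), and with array weights (adjusted p = 0.0456, both in limma). Fulvestrant added to estradiol gave 0.20 (95% interval 0.064 to 0.34, adjusted p = 0.16 in limma), and estradiol against hypoxia gave -0.070 (-0.21 to 0.070, adjusted p = 0.644 in limma).

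Ramp3, which with Calcrl forms the second adrenomedullin receptor, was the 1 gene of the set that rose in hypoxia (probe set 10774115). It was 8.93, 9.08, 8.75 and 8.52 with estradiol and fulvestrant, and 9.01, 9.62, 9.04 and 8.86 with estradiol. It was 9.25, 9.09, 8.61 and 9.11 in hypoxia and 8.46, 8.43, 8.57 and 8.22 in normoxia. The normoxia arrays lay under those of hypoxia and of hypoxia with estradiol, and overlapped those with fulvestrant added.

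The order of the Ramp3 means was hypoxia with estradiol (9.13 ± 0.34), hypoxia (9.02 ± 0.28), hypoxia with estradiol and fulvestrant (8.82 ± 0.24) and normoxia (8.42 ± 0.14; SD, n = 4 each). Hypoxia against normoxia gave 0.59 (SE 0.17, 95% interval 0.24 to 0.95, adjusted p = 0.0467 in limma), or 1.51-fold. That call ended without any 1 of the 8 arrays but hypoxia replicate 3 (adjusted p of 0.0525 to 0.146 in limma), without which it was 0.73 (adjusted p = 0.0141). It also ended over all probe sets (adjusted p = 0.0687 in limma) and under the other label of normoxia replicate 4 (0.37, adjusted p = 0.42).

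Estradiol against normoxia gave 0.71 for Ramp3 (SE 0.17, adjusted p = 0.0212 in limma), or 1.64-fold. This call ended without normoxia replicate 1 (adjusted p = 0.0501), 2 (0.0519) or 4 (0.0554), without estradiol replicate 2 (0.0525), with the 2 groups only (0.0612) and under the other label of normoxia replicate 4 (0.129, all in limma). Estradiol with fulvestrant against normoxia gave 0.40 (SE 0.17, adjusted p = 0.252 in limma) and did not pass. That it passed in one hypoxic group and not in another does not show a difference between them: fulvestrant added to estradiol gave -0.32 (95% interval -0.67 to 0.034, adjusted p = 0.395 in limma). It was -0.15 without estradiol replicate 2 (adjusted p = 0.731) and -0.12 without replicates 2 and 3 (adjusted p = 0.872, both in limma).

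Markers of alveolar macrophages had mean signals of 9.05 to 9.17 with estradiol and fulvestrant, 9.24 to 9.77 with estradiol, 9.09 to 9.54 in hypoxia and 8.64 to 8.87 in normoxia. The normoxia arrays lay under all others. Of the 6 markers 3 rose in hypoxia against normoxia, Fabp4, Chi3l1 and Pparg, beside 3.21% of all genes. Under the other label of normoxia replicate 4, 0 did so. With estradiol against normoxia 4 of the 6 rose, beside 2.87% of all genes, and 3 under the other label. With estradiol and fulvestrant against normoxia 1 rose, and 0 under the other label. The list's median difference from normoxia was 0.32 with estradiol and fulvestrant, 0.80 with estradiol and 0.71 in hypoxia. Mrc1, a mannose receptor of macrophages, rose with estradiol against hypoxia (0.49, adjusted p = 0.0362) and fell when fulvestrant was added (-0.57, adjusted p = 0.0403, both in limma). The rise ended under the other label of normoxia replicate 4. The part of these markers in the Ramp3 values was not tested.

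Ramp1, which turns Calcrl into the receptor for calcitonin gene-related peptide, differed most between the lungs with and without fulvestrant (probe set 10925365). It was 9.94, 9.79, 9.84 and 9.78 with estradiol and fulvestrant, 9.40, 9.34, 9.51 and 9.59 with estradiol, 9.92, 9.70, 9.49 and 9.70 in hypoxia, and 9.67, 9.54, 9.55 and 9.68 in normoxia. The arrays with fulvestrant lay above all those with estradiol alone and all those of normoxia.

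Fulvestrant added to estradiol gave 0.38 for Ramp1 (SE 0.082, 95% interval 0.20 to 0.55, adjusted p = 0.0699 in limma), which did not pass. Without estradiol replicate 4 it passed, at 0.42 (adjusted p = 0.0249 in limma). Estradiol against hypoxia gave -0.24 (SE 0.082, adjusted p = 0.18 in limma), and hypoxia against normoxia gave 0.091 (95% interval -0.084 to 0.27, adjusted p = 0.586 in limma).

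Ramp2, the partner of Calcrl in the main adrenomedullin receptor of endothelium, passed in none of the 6 pairs of groups (probe set 10738341). It was 12.52, 12.40, 12.50 and 12.42 with estradiol and fulvestrant, 12.30, 12.17, 12.01 and 12.46 with estradiol, 12.42, 12.28, 12.39 and 12.29 in hypoxia, and 12.70, 12.46, 12.43 and 12.42 in normoxia. Estradiol replicate 4 lay among the normoxia and fulvestrant arrays, while the other 3 estradiol arrays lay lower or among the hypoxia arrays. Estradiol against normoxia gave -0.27 (SE 0.087, adjusted p = 0.0927 in limma) and passed without estradiol replicate 4 (-0.34, adjusted p = 0.022 in limma). Without estradiol replicates 2 and 3, which stood apart, it was -0.12 (adjusted p = 0.553 in limma). Fulvestrant added to estradiol gave 0.23 (SE 0.087, adjusted p = 0.231 in limma), and 0.081 without those arrays (adjusted p = 0.813).

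Read across the 8 genes, fulvestrant added to estradiol passed for 0 in limma (4 at an unadjusted p under 0.05, as were 14.8% of all genes), beside 0.0483% of all genes that passed. The arrays did not overlap for 3, Vipr2, Calcrl and Ramp1, each higher with fulvestrant, against 9.05% of all genes and 4.78% in that direction. The median difference was 0.22 over the 8 and 0.0050 over all genes. Estradiol against hypoxia had a median of -0.091 over the 8 and -0.022 over all genes. These comparisons share the estradiol arrays, so that an unusual estradiol array moves both in opposite ways.

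Against normoxia, estradiol gave 4 calls among the 8, Vipr1, Vipr2 and Calcrl lower and Ramp3 higher, beside 5.21% of all genes (2.87% higher, 2.34% lower). The arrays did not overlap for those 4, against 9.21% of all genes. Estradiol with fulvestrant gave 2, Vipr1 and Vipr2 lower, beside 2.96% of all genes (0.993% lower), and the arrays did not overlap for 3, those and Ramp1, against 12.3%. These comparisons share the normoxia arrays. Estradiol with fulvestrant against hypoxia alone passed for 0 of the 8 and 0 of all genes in limma, with 0 of the 8 at an unadjusted p under 0.05 (1009 of all genes). Without hypoxia with estradiol replicates 2 and 3, which stood apart, Vipr1 at -1.26 (adjusted p = 0.0253) and Vipr2 at -0.73 (adjusted p = 0.00298) still passed against normoxia, and Calcrl at -0.25 (adjusted p = 0.167) and Ramp3 at 0.51 (adjusted p = 0.157, all in limma) did not.

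**Figure D3:**
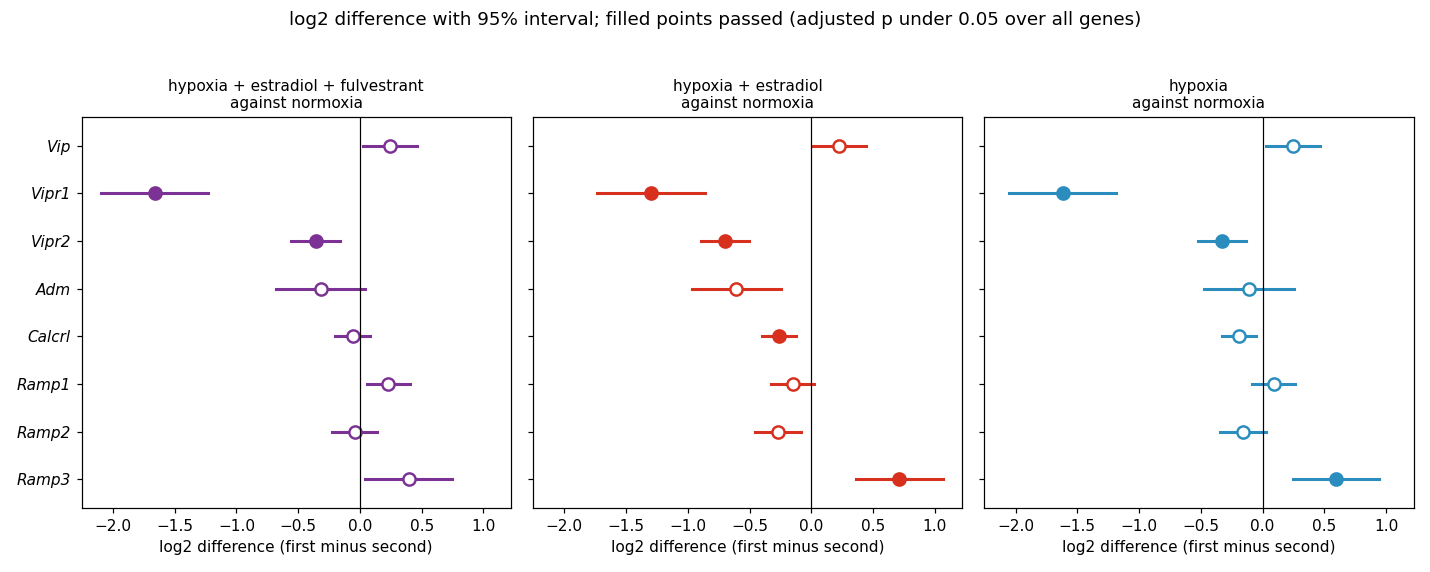
log2 difference (horizontal axes, first group minus second) of the 8 genes in each hypoxic group against normoxia, with its 95% interval, where filled points passed at an adjusted p under 0.05. Vipr1 passed in the 3 groups at -1.66, -1.30 and -1.62, while Calcrl passed only with estradiol (-0.26) and Ramp3 with estradiol (0.71) and in hypoxia (0.59).

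Vessel and blood cell markers differed between the same groups. In hypoxia against normoxia 3 of 6 lymphatic endothelial markers rose and 1 fell, beside 3.21% and 2.43% of all genes. Under the other label of normoxia replicate 4, 0 rose and 1 fell. With estradiol against normoxia 2 of the 6 rose and 1 fell under either label. In hypoxia 1 of 5 erythrocyte markers rose and 1 of 5 mast cell markers fell, and 0 passed in either list under the other label. The mean signal of 9 lung capillary markers was 11.09 to 11.19 with estradiol and fulvestrant, 10.65 to 10.96 with estradiol, 11.03 to 11.19 in hypoxia and 11.10 to 11.30 in normoxia, so that the estradiol arrays lay under all others. Of these markers Car4 and Apln fell with estradiol against hypoxia, and 0 of the 9 passed when fulvestrant was added. Over all genes 0.772% and 0.0483% passed in these comparisons. Of 7 neutrophil markers 6 rose with estradiol against hypoxia, with mean signals of 8.70 to 9.53 against 7.34 to 8.13. None of these capillary and neutrophil calls held under the other label of normoxia replicate 4. With estradiol against normoxia, Car4, Hpgd, Plvap and Apln were lower under both labels (adjusted p of 0.00334 to 0.0346 under the other label in limma). Emcn was higher by title only (adjusted p = 0.0791 under the other label in limma). Of the 7 neutrophil markers 1 rose by title in that comparison (2.87% of all genes), and 1 under the other label. The 7 smooth muscle markers had means of 11.69 to 12.12 with estradiol and fulvestrant, 11.44 to 11.68 with estradiol, 11.45 to 11.71 in hypoxia and 11.02 to 11.41 in normoxia. Against normoxia 5 of the 7 rose with estradiol and fulvestrant, and 5 under the other label. With estradiol 2 rose (2.87% of all genes) and 1 under the other label. In hypoxia 2 rose (3.21% of all genes) and 1 under the other label. The part of these vessel, muscle and blood cell markers in the values of Vipr2, Calcrl, Ramp1 and Ramp2 was not tested.

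**Figure D4:**
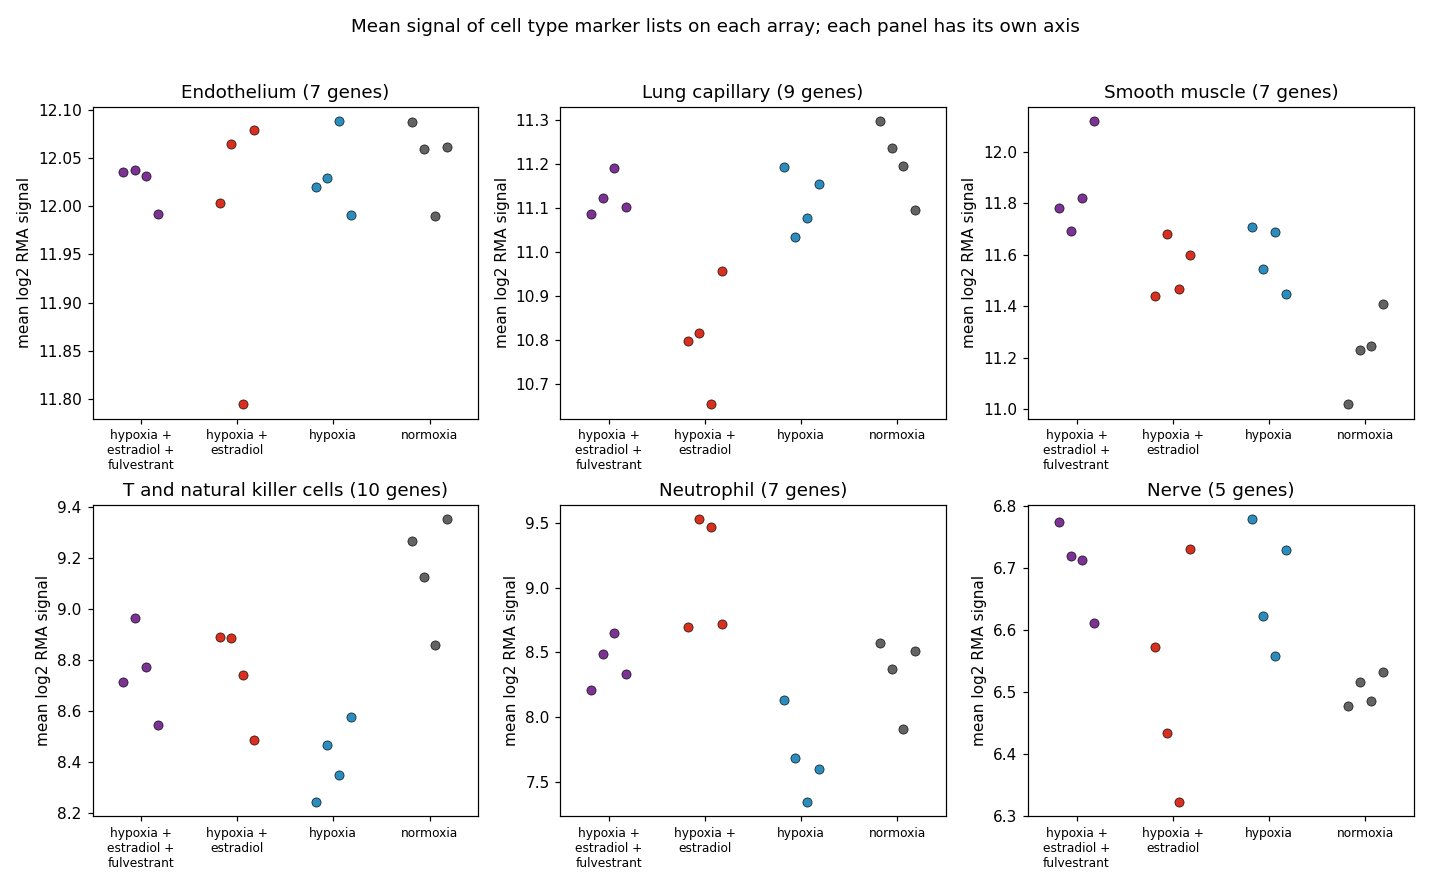
Mean log2 RMA signal (vertical axes, different for each panel) of marker genes of 6 cell types on each array (points), by group. The lung capillary list is lowest with estradiol (10.65 to 10.96) and the smooth muscle list is lowest in normoxia. The T and natural killer cell list is higher in normoxia (8.86 to 9.35) than in hypoxia (8.24 to 8.58), and the groups with estradiol overlap normoxia.

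Related peptides and receptors moved less than Vipr1. Of 14 such genes 1 rose in hypoxia and 0 fell, beside 3.21% and 2.43% of all genes, and 0 passed in the other main comparisons in limma. The gene that rose was Ackr3, a scavenger receptor that binds adrenomedullin, at 12.57 ± 0.14 in hypoxia and 12.18 ± 0.092 in normoxia (SD, n = 4 each; log2 difference 0.39, adjusted p = 0.00884 in limma). It was also higher with estradiol than in normoxia (0.43, adjusted p = 0.00639 in limma). Adcyap1, which encodes the related peptide PACAP, differed by 0.090 between hypoxia and normoxia (adjusted p = 0.652 in limma), and its receptor Adcyap1r1 by 0.23 (adjusted p = 0.343) and by -0.46 between estradiol and hypoxia (adjusted p = 0.112). Calca, which encodes calcitonin gene-related peptide, differed by 0.19 between hypoxia and normoxia (adjusted p = 0.433), and Gpr182, once proposed as an adrenomedullin receptor, by -0.083 (adjusted p = 0.736). Of 11 genes that process or break down such peptides 0 passed in the 3 main comparisons in limma. Under the other label of normoxia replicate 4, Ackr3 did not pass in hypoxia (0.27, adjusted p = 0.268) or with estradiol (0.40, adjusted p = 0.0779, both in limma).

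In the cyclic AMP arm, through which these receptors signal, 2 of 38 genes rose in hypoxia and 2 fell, beside 3.21% and 2.43% of all genes. The phosphodiesterase Pde4b, which breaks down cyclic AMP, rose 1.70-fold (log2 0.76, adjusted p = 0.0174 in limma), and Pkig, an inhibitor of protein kinase A, rose 1.39-fold (0.47, adjusted p = 0.0135). The receptor kinases Grk6 (-0.29, adjusted p = 0.021) and Grk2 (-0.22, adjusted p = 0.0411), which turn activated receptors off, were lower. With estradiol against hypoxia 1 rose, the phosphodiesterase Pde4c (0.62, adjusted p = 0.0362), and 0 fell, beside 0.772% of all genes that passed. When fulvestrant was added 0 of the 38 passed in limma. None of these 5 genes passed in the same comparison under the other label of normoxia replicate 4 (adjusted p of 0.0843 for Pkig, 0.218 for Pde4b, 0.397 for Grk6, 0.405 for Grk2 and 0.0654 for Pde4c in limma). With estradiol against normoxia 3 of the 38 were lower and 1 higher, beside 2.34% and 2.87% of all genes. Adcy2 (-0.40), Pde7b (-0.47) and Arrb1 (-0.38) were lower under both labels (adjusted p of 0.0157, 0.0207 and 0.0244 under the other label in limma). Pde4c was higher by title only (adjusted p = 0.103 under the other label in limma). The median of the arm was -0.016 in hypoxia against normoxia, beside 0.026 over all genes.

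Genes with the pattern most like that of each member that passed in a main comparison were ranked by Pearson's r over the 16 arrays. These values describe arrays that share groups. Because the genes were picked for likeness over all 16 arrays, their differences between groups follow largely from that choice. The p values given for them are no separate support. The genes most like Vipr1 were Taf11, a subunit of a general transcription factor (r = 0.95 over 16 arrays, 0.65 over the 12 hypoxic arrays), Pgm2l1, an enzyme that makes glucose 1,6-bisphosphate (0.94 and 0.63), and Epas1, which encodes the oxygen-regulated subunit HIF-2 alpha (0.93 and 0.71). In hypoxia against normoxia Pgm2l1 was at -0.98 (adjusted p = 9.39e-06 in limma), Taf11 at -0.33 (adjusted p = 0.00101) and Epas1 at -0.23 (adjusted p = 0.025). Under the other label of normoxia replicate 4 none of the 3 passed (adjusted p = 0.0767 for Pgm2l1, 0.189 for Taf11 and 0.174 for Epas1 in limma). For each of these genes r was lower within the hypoxic arrays than over all 16. Such a drop is largely built into a ranking by r over all 16, which includes the Vipr1 gap to normoxia.

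The genes most like Vipr2 were Opcml, a cell adhesion molecule (r = 0.94 over 16 arrays, 0.90 over the 12 hypoxic arrays), Tfpi, the inhibitor of the tissue factor pathway of clotting (0.93 and 0.84), and Klhl13, an adaptor of a ubiquitin ligase (0.89 and 0.81). Opcml averaged 8.51 with estradiol and fulvestrant, 7.88 with estradiol, 8.39 in hypoxia and 8.98 in normoxia, the same order as Vipr2 except that the fulvestrant and hypoxia groups changed places. The genes most like Ramp3 were Tm4sf19 (r = 0.90 and 0.87), the glucose transporter Slc2a1 (0.89 and 0.83) and the transporter of basic amino acids Slc7a1 (0.89 and 0.82). Among the 8 genes themselves, Ramp3 ran opposite to Calcrl (r = -0.78 over 16 arrays, -0.70 over the 12 hypoxic ones), and Vipr1 and Vipr2 had r = 0.48 over 16 arrays and -0.61 over the hypoxic ones.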

How the data were processed

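RNA of 16 rat lungs was hybridised to 1-colour Affymetrix gene arrays. The deposited values are log2 RMA signals, made by the authors with RMA and Partek per the submitters' processing notes, without versions or settings. RMA brings the arrays to a common distribution (array medians here were 7.69 to 7.77), and a change common to most of the genes is lost. The table has 29214 probe sets, of which 15310 had 1 gene symbol, 323 several and 13581 none, and 0 values were missing. Symbols were updated through RefSeq gene IDs (14481 genes matched), and the probe set with the highest mean stood for a gene.

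Groups came from the titles, and replicate numbers are in order of submission. The 4 group means were fitted over all 16 arrays with limma 3.58.1 in R 4.3.3, with empirical Bayes moderation, and p values were adjusted by Benjamini-Hochberg over 14506 genes. The script was tested on simulated data. No count depth exists for arrays, and 4 per group limit the precision. Replicates are separate rats per the labels.

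The 8 genes, the gene and marker lists and the tests were chosen with earlier results of these data known. The rule for names took the 8 genes, 3 most alike genes per gene called in a main comparison, every list gene that passed there (up to 6 per list and comparison) and 5 fixed relatives. Marker lists are given as values. Alternatives were median centring, quantile normalization again, dim genes left out, the mean of a gene's probe sets, all probe sets, the 2 groups only, an intensity trend, robust moderation, array weights, the other label of normoxia replicate 4, and arrays left out. The other label was also tried for related and marker genes, chosen after seeing the data. Capillary, peptide breakdown and cyclic AMP genes called with estradiol against normoxia were also named, a choice made after seeing the data.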

Additional observations from a re-analysis of the deposited data

Results flagged for a closer look

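In 4 of the 32 sets of 4 arrays (8 genes in 4 groups) 1 array lay far from the other 3, judged by its gap to the nearest array as a share of the whole range. Chance gives about 1 in 20. Vip in normoxia replicate 4 was 4.94, against 4.65 for the nearest (share 0.94), and this is the lung whose labels disagree. Vip in hypoxia replicate 1 was 5.22, against 4.91 (0.833). Vipr2 in normoxia replicate 2 was 8.65, against 8.33 (0.945), and without this array the hypoxia difference of Vipr2 was -0.25 in place of -0.33. Ramp2 in normoxia replicate 1 was 12.70, against 12.46 (0.855).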

How the results depend on the processing

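Without 1 array at a time, the number of the 8 genes that passed ran from 1 to 3 in hypoxia against normoxia (3 with all arrays), 0 to 1 in estradiol against hypoxia (0), 0 to 1 in fulvestrant added to estradiol (0), 2 to 6 in estradiol against normoxia (4), and was 1 in each fit of estradiol with fulvestrant against normoxia (2). With normoxia replicate 4 counted as hypoxia the counts against normoxia were 0 for hypoxia, 1 for estradiol and 0 for estradiol plus fulvestrant. Over all probe sets they were 1 in hypoxia and 1 with fulvestrant. With array weights 4 of the 8 passed in hypoxia against normoxia. Estradiol against normoxia gave 2 from the 8 arrays of those groups alone and 2 without estradiol replicates 2 and 3. The cause was not tested.

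Signs changed only for differences that did not pass. Estradiol against hypoxia turned for Vip with array weights (0.0024), Vipr1 with normoxia replicate 4 counted as hypoxia (-0.038), and Ramp2 (0.034) and Ramp3 (-0.080) without estradiol replicates 2 and 3. In fulvestrant added to estradiol Vip turned without those arrays (-0.00098). In estradiol with fulvestrant against hypoxia Vip turned with quantile normalization (0.00053), array weights (0.026) and the other label of normoxia replicate 4 (0.0015). Without 1 array at a time the ranges that crossed 0 were -0.089 to 0.063 (Vip) and -0.044 to 0.21 (Ramp3) in estradiol against hypoxia, -0.034 to 0.086 (Vip) in fulvestrant added to estradiol, -0.069 to 0.022 (Ramp2) in estradiol with fulvestrant against normoxia, and -0.052 to 0.082 (Vip), -0.23 to 0.14 (Vipr1) and -0.083 to 0.00054 (Vipr2) in estradiol with fulvestrant against hypoxia.

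Over all genes 817 were called in hypoxia against normoxia. The calls moved to 40 with normoxia replicate 4 counted as hypoxia, 1153 with array weights and 428 to 986 without 1 array. They moved from 112 to between 0 and 355 in estradiol against hypoxia, and from 7 to between 0 and 331 in fulvestrant added to estradiol. Against normoxia they moved from 756 to between 216 and 887 with estradiol, and from 430 to between 100 and 786 with estradiol and fulvestrant. No paired analysis was possible because the labels give the groups no shared replicate numbers. Vip lies among the lowest 25% of genes by mean signal, and signal over background was not measured.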
